A study of Homo sapiens with 22 samples.

Results

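The Schlafen (SLFN) genes of human chromosome 17 were followed in HUDEP-2 cells that lacked the histone variant H2A.X or the kinase BAZ1B. The family comprised SLFN5, SLFN11, SLFN12, SLFN13, SLFN12L and SLFN14, 6 of the 59087 gene names in each count table, and was taken by symbol. It was selected on SLFN13, whose level differed between knockout (KO) and wild type (WT) in opposite directions in the 2 knockouts, so the KO values of SLFN13 are given here as a description, without a test. The other members were taken in by name. HUDEP-2 cells are immortalized erythroid progenitors of human origin, kept in expansion medium at D0 and moved to maturation conditions for 6 days to D6. Subclones without H2A.X (3) were compared with 2 WT subclones, and those without BAZ1B (3) with 3 WT subclones. Sampling at D0 and again at D6 gave 22 RNA-Seq libraries. Deletions were made by CRISPR/Cas9 with paired guides in lentiviral vectors. For H2A.X they spanned the coding sequence, and for BAZ1B the region of the first exon alone. Each KO subclone grew from a single cell with a homozygous deletion, so a group is a small set of clones of 1 line. The labels do not say whether same-numbered WT libraries of the 2 experiments share a subclone.

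Schlafen proteins are vertebrate regulators of RNA, replication and growth, several of them induced by interferon. SLFN13 and SLFN14 are endoribonucleases that cut transfer and ribosomal RNA, SLFN14 sits on ribosomes, and inherited variants of SLFN14 cause a bleeding disorder of platelets. SLFN11 binds replication protein A at stressed replication forks, and SLFN12 is activated as an RNase by complex formation with the phosphodiesterase PDE3A. In blood cells the family is known for its links to quiescence, to the response to DNA damage and to platelet and red cell formation.

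In GRCh38 the 6 genes lie within 317.7 kb of chromosome 17. SLFN5 runs on the plus strand from 35243071 to 35273655. On the minus strand follow SLFN11 (35350305 to 35373701), SLFN12 (35410922 to 35433283), SLFN13 (35435096 to 35448837), SLFN12L (35464249 to 35537678) and SLFN14 (35543985 to 35560819). SLFN12 begins 1812 bp beyond the end of SLFN13. Of the 75-base windows of the SLFN13 transcript, 5.72% occur in another member's transcript, and of SLFN11's 9.40%, while SLFN5 and SLFN14 share none. With 100-base windows the shares were 5.08% for SLFN13 and 8.37% for SLFN11. Counts of SLFN11 and SLFN13 can therefore be split differently by a counting rule on such windows.

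Total counts per library ranged from 11910141 to 21013004 for H2A.X and from 33199408 to 41273244 for BAZ1B. All 8 erythroid markers, among them HBB and SLC4A1, had reads in every group, and the summed lymphocyte, monocyte and neutrophil markers stayed at or below 6.37 CPM, the TMM-scaled count relative to library size. The H2A.X WT libraries stood apart, with BAZ1B at 81.7 to 122 CPM against 167 to 283 in H2A.X KO. Their column names lacked the word Redo, found in 5 of the 6 H2A.X KO columns, KO replicate 3 at D6 being the exception. What was redone is not stated, and at D0 this mark and the genotype cannot be told apart. The KO effect of all genes rose with transcript length there, by a Spearman's rho of 0.545 (D0) and 0.602 (D6) across 12010 genes, which share libraries and are not independent, against -0.03 and 0.05 across 12401 genes in the BAZ1B experiment. SLFN13 (8.4 kb) and SLFN14 (7.17 kb) were longer than 93.6% and 89.6% of these genes. H2AFX itself read 17.5 to 59.8 CPM in H2A.X KO and 89.7 to 136 in WT. BAZ1B read 174 to 222 CPM in BAZ1B KO and 242 to 264 in WT, and since its counts cover the exons outside the deletion, they check that label only in part.

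SLFN13 and SLFN14 made up nearly all of the family's reads. Across the H2A.X experiment 19.8% of the 3807 family reads fell on SLFN13 and 79.2% on SLFN14, and across the BAZ1B experiment 28.3% and 70.3% of 10406. They were the 2 members that passed the filter on low counts, out of 13236 tested genes (H2A.X) and 13879 (BAZ1B). On the scale of level per kb of transcript, which allows a comparison between genes, SLFN13 stood above SLFN14 in BAZ1B WT at D0, at 1.72 ± 0.0955 (SD, n = 3) against 1.05 ± 0.0209 CPM per kb (SD, n = 3). At D6 the order was the other way round, at 1.19 ± 0.142 (SD, n = 3) for SLFN13 and 4.49 ± 0.189 CPM per kb (SD, n = 3) for SLFN14.

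SLFN13 was present in one genotype of each experiment and nearly absent from the other. In the H2A.X experiment neither WT library at D0 held a read, and each WT library at D6 held 1. The KO libraries read 193, 103 and 150 counts at D0 and 96, 102 and 108 at D6, which is 7.12 ± 2.13 CPM (SD, n = 3) and 5.49 ± 0.459 CPM (SD, n = 3). Every KO library lay above every WT library at both days. Against a floor of 3 counts per library, KO was at least 37.8-fold higher at D0. At D6, where WT held 2 reads in all, the pooled ratio was 69.1, with an exact binomial 95% interval from 19.0 to 573, which covers counting error only.

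In the BAZ1B experiment the genotypes changed places. The WT libraries read 564, 627 and 653 counts of SLFN13 at D0 and 327, 297 and 421 at D6, or 14.5 ± 0.804 CPM (SD, n = 3) and 9.98 ± 1.20 CPM (SD, n = 3). The KO libraries read 7, 15 and 8 at D0 and 8, 4 and 10 at D6, or 0.262 ± 0.101 CPM (SD, n = 3) and 0.204 ± 0.0778 CPM (SD, n = 3). Every KO library lay below every WT library. The fitted log2 fold change was -5.76 at D0 (SE 0.215) and -5.57 at D6 (SE 0.227). These are the values that selected the family, and they are read no further.

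Both sets of WT libraries come from 1 line and differed as much as the genotypes did, at 0 to 0.102 CPM of SLFN13 in the H2A.X WT and 8.94 to 15.3 CPM in the BAZ1B WT libraries. In SLFN13, H2A.X WT was thus at the level of BAZ1B KO or below it, and H2A.X KO came nearest to BAZ1B WT. The tables were made separately, so no test was run across them, and experiment, sequencing run and subclone cannot be told apart in this gap. The 8 erythroid markers summed to 21690 to 28600 CPM in H2A.X WT and 6004 to 6689 CPM in BAZ1B WT at D0. At D6 these ranges overlapped, at 33430 to 54290 CPM and 34240 to 38910 CPM. The part of maturation state in the gap between the WT sets was not tested. In the order of group means for SLFN13, the ranges of BAZ1B WT at D6 and H2A.X KO at D0 overlapped, as did those of H2A.X KO at D0 and D6 and those of BAZ1B KO at D0 and D6. The plot of levels by library shows these steps beside those of SLFN14.

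**Figure D1:**
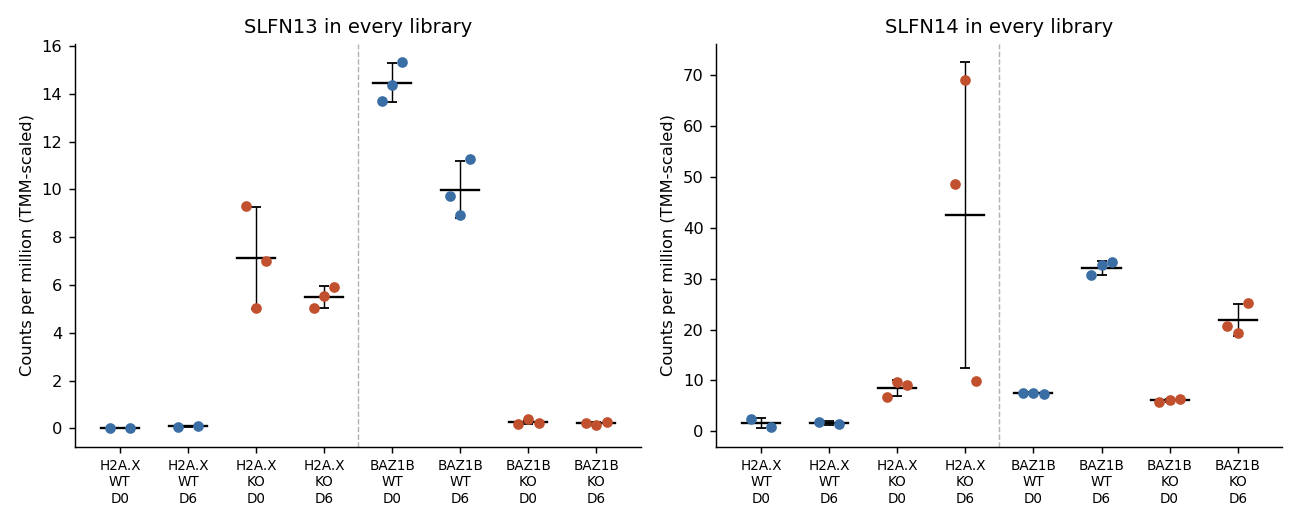
SLFN13 (left) and SLFN14 (right) in TMM-scaled CPM in all 22 libraries, with WT in blue and KO in orange. Each point is 1 library, the black line is the group mean and the bar is ± 1 SD (n = 2 in H2A.X WT, n = 3 elsewhere), and the dashed line parts the experiments. SLFN13 stands near 0 in H2A.X WT and BAZ1B KO, and SLFN14 spreads from 9.95 to 69.0 in H2A.X KO at D6.

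SLFN13 was lower at D6 in BAZ1B WT. It fell by 0.53 on the log2 scale from D0 to D6 (SE 0.148, adjusted p = 0.00591, edgeR), and all D6 libraries lay below all D0 libraries. Day moved 68.9% of all tested genes in these WT cells and 67.7% in BAZ1B KO, so a call is the common outcome here. BAZ1B KO, with at most 15 reads per library, had passed the filter through its WT libraries and is given no test. Its pooled D6 to D0 ratio was 0.782, with an exact binomial 95% interval from 0.430 to 1.40. In H2A.X KO it was -0.37 (SE 0.283, adjusted p = 0.355, edgeR), and 1 of the 3 same-numbered pairs of libraries went up, the other two down. H2A.X WT, with at most 1 read in a library, allows no fold.

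SLFN14, the ribosome-associated endoribonuclease, was higher in the H2A.X KO libraries than in WT. At D0 the WT libraries read 41 and 13 counts and the KO libraries 139, 197 and 196, or 1.62 ± 1.04 CPM (SD, n = 2) against 8.50 ± 1.58 CPM (SD, n = 3). No KO library overlapped a WT library. These are the contrasts in which SLFN13 was selected. The log2 fold change was 2.36 (SE 0.734, adjusted p = 0.0317, edgeR), and SLFN14 was 1 of 1 members other than SLFN13 tested, where 35.1% of all genes were called. The call did not survive the loss of any 1 of the 5 libraries (adjusted p from 0.0515 to 0.242, edgeR), while the log2 fold change ran from 1.85 without WT replicate 2 to 3.25 without WT replicate 1. Those 2 fits leave a lone WT library at D0, which is assumed to vary like the other groups. Nor did it survive offsets for transcript length and GC content (log2 fold change 1.66, adjusted p = 0.0992, edgeR).

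At D6 the gap was wider. WT libraries read 29 and 14 counts of SLFN14, and KO libraries 930, 1275 and 181, which is 1.66 ± 0.325 CPM (SD, n = 2) against 42.5 ± 30.0 CPM (SD, n = 3). KO replicates 1 and 2 stood at 48.6 and 69.0 CPM and replicate 3, the KO library without the Redo mark, at 9.95 CPM, and all 3 lay above WT. KO exceeded WT by 4.66 on the log2 scale (SE 0.799, adjusted p = 0.00398, edgeR), with 43.1% of all genes called in this comparison. Without KO replicate 3 it was 5.15 (adjusted p = 0.000219, edgeR), and with offsets for length and GC content 3.77 (adjusted p = 0.0120, edgeR). Without WT replicate 2 the call was lost (log2 fold change 4.52, adjusted p = 0.0626, edgeR), a fit in which the lone WT library at D6 is assumed to vary like the other groups.

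In the BAZ1B experiment SLFN14 was lower in KO, by far less. The WT libraries read 311, 331 and 312 counts at D0, and the KO libraries 220, 245 and 221, or 7.49 ± 0.150 (SD, n = 3) against 6.07 ± 0.270 CPM (SD, n = 3). Although the ranges did not overlap, the log2 difference of -0.30 did not pass the test (SE 0.0989, adjusted p = 0.127, edgeR), in a comparison with 3.88% of all genes called. At D6 the WT libraries read 1031, 1085 and 1237 counts and the KO libraries 788, 623 and 908, or 32.2 ± 1.35 (SD, n = 3) against 21.8 ± 3.14 CPM (SD, n = 3). SLFN14 fell by 0.56 on the log2 scale in KO at D6 (SE 0.0886, adjusted p = 0.00120, edgeR), where 12.8% of all genes were called, and no range overlapped.

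SLFN14 rose with maturation in both genotypes of the BAZ1B experiment. In WT the log2 fold change from D0 to D6 was 2.10 (SE 0.0942, adjusted p = 8.28e-10, edgeR), and the same-numbered libraries rose 4.05-, 4.30- and 4.53-fold. In KO it was 1.84 (SE 0.0964, adjusted p = 3.14e-09, edgeR), with rises of 3.60-, 3.14- and 4.02-fold. The KO effects at D6 and D0 differed by -0.26 on the log2 scale (SE 0.133, unadjusted p = 0.0754 and adjusted p = 0.367 by edgeR, 0.404 by DESeq2), in a test that called 2.47% of all genes.

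The H2A.X experiment was split. In KO, SLFN14 rose from D0 to D6, by 2.32 on the log2 scale (SE 0.569, adjusted p = 0.0121, edgeR), where 30.9% of all genes were called. Replicates 1 and 2 rose 7.27- and 7.17-fold, while replicate 3 stood at 9.18 CPM at D0 and 9.95 CPM at D6, a ratio of 1.08. In WT, with 2.0% of all genes called for day, the levels at D0 were 2.36 and 0.885 CPM and those at D6 1.89 and 1.43 CPM. Their log2 difference of 0.03 carried an SE of 0.861 (adjusted p = 0.994, edgeR), wide enough to cover a change by several fold. Between D6 and D0 the KO effects differed by 2.29 (SE 1.02, unadjusted p = 0.0485 and adjusted p = 0.324 by edgeR, 0.126 by DESeq2), with 1.34% of all genes called. Without KO replicate 3 at D6 this difference was 2.80 and passed the test (adjusted p = 0.0225, edgeR), and without WT replicate 1 at D0 it was 1.41 (adjusted p = 0.715, edgeR). In bulk RNA, fewer cells of a maturation stage and less RNA per cell cannot be told apart. The erythroid markers differed between the genotypes as well: ALAS2, the erythroid enzyme that starts heme synthesis, read 1083 to 1196 CPM in H2A.X WT and 325 to 420.2 CPM in H2A.X KO at D0. A list of 8 mast cell and eosinophil markers went from 209 to 419 CPM in sum at D0 to between 3.08 and 13.5 CPM at D6 in H2A.X KO, and from 104 to 140 CPM to between 145 and 232 CPM in H2A.X WT, with 1 to 3 of the 8 at 0 reads. A list of 9 megakaryocyte and platelet markers summed to 11.2 to 14.0 CPM in H2A.X WT and 36.9 to 79.8 CPM in H2A.X KO at D0. At D6 these ranges overlapped, at 12.5 to 16.1 CPM in WT and 10.35 to 46.6 CPM in KO. In the BAZ1B experiment the sums were 74.95 to 79.1 CPM in WT and 35.8 to 69.5 CPM in KO at D0. At D6 they were 22.1 to 25.6 CPM in WT and 6.46 to 11.9 CPM in KO, lower than at D0, while SLFN14 rose. In each group 3 to 6 of the 9 markers were at 0 reads. The part of these markers in the SLFN14 values was not tested.

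**Figure D2:**
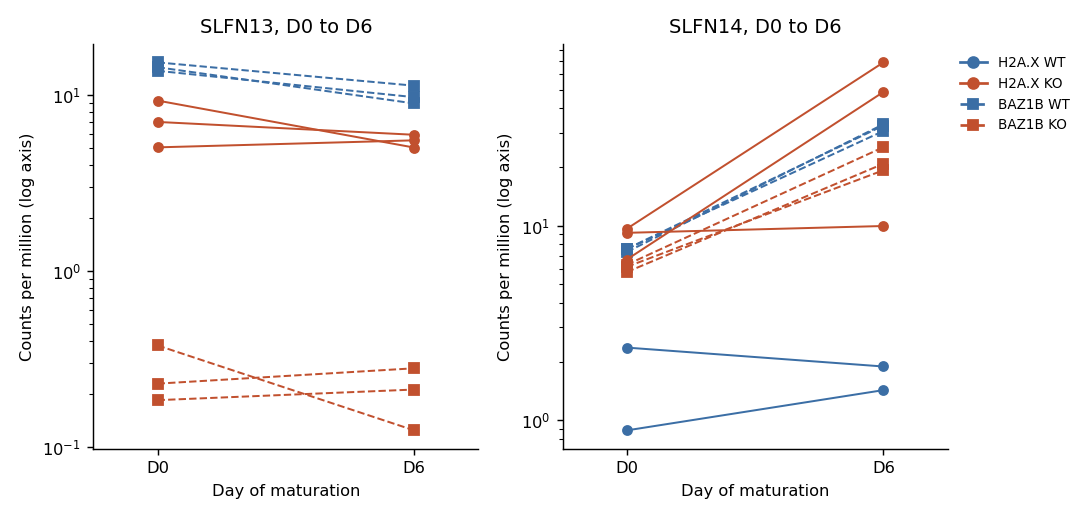
CPM of SLFN13 (left) and SLFN14 (right) at D0 and D6, on a log axis, with 1 line for each pair of same-numbered libraries. Circles and full lines mark the H2A.X experiment, squares and dashed lines the BAZ1B experiment, blue WT and orange KO, and the H2A.X WT pairs of SLFN13 are left out because they were at 0 at D0. SLFN14 climbs in all 6 BAZ1B pairs and in 2 of the 3 H2A.X KO pairs, and SLFN13 falls in all 3 BAZ1B WT pairs, to between 0.622 and 0.737 of its D0 level.

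The remaining 4 members were at the edge of detection, with 14 reads or fewer in any library, and none passed the filter. SLFN5, an interferon-induced nuclear member, was the steadiest of them, with 2 to 14 reads in each BAZ1B library and 0 to 6 in each H2A.X library. At D0 it read 8, 3 and 2 counts in BAZ1B WT and 8, 5 and 14 in BAZ1B KO. These ranges overlapped, and the pooled KO to WT ratio was 2.34, with an exact binomial 95% interval from 1.17 to 4.93.

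The genes on either side of SLFN13 had their reads in the BAZ1B WT libraries at D0. SLFN12, the partner of PDE3A, read 6, 8 and 5 counts there and 0 in all 3 BAZ1B KO libraries, at least 1.87-fold lower against the floor of 3 counts per library. SLFN12L read 5, 7 and 10 counts in WT and 4, 1 and 0 in KO, a pooled KO to WT ratio of 0.256 with an exact binomial 95% interval from 0.0757 to 0.692. SLFN11, the replication fork factor, read 2, 4 and 3 counts in WT and 0 in all KO libraries, which is at the floor and allows no fold. At D0 the KO counts of these 3 genes lay below the WT counts, in SLFN12L by as little as 4 reads against 5. In SLFN5, at the far end of the cluster, the ranges overlapped. The share of all genes with such separated ranges was not counted, and the 3.88% called in this comparison covers tested genes only. SLFN11 shares 9.40% of its 75-base windows with another member, and the part of this in its few reads was not tested. These counts were looked at because of SLFN13, and none of these members passed the filter for the test.

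In the H2A.X experiment the same 3 genes held 0 reads in every WT library at both days. SLFN12 read 1, 2 and 0 counts in KO at D0 and again 1, 2 and 0 at D6, SLFN12L 0, 1 and 1 and then 0 throughout, and SLFN11 a single read in 1 KO library. All are under the floor of 3 counts, which corresponds to 0.140 to 0.306 CPM in these libraries and to 0.0688 to 0.0927 CPM in the deeper BAZ1B libraries. A difference between genotypes was not detectable for them at this depth.

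With maturation, SLFN12L went from 5, 7 and 10 reads to 0 in all 3 BAZ1B WT libraries, at least 1.99-fold lower at D6. SLFN12 went from 6, 8 and 5 reads to 1, 0 and 3, a pooled ratio of 0.257 with an interval from 0.0637 to 0.775. SLFN5 moved the other way in WT, from 8, 3 and 2 reads to 12, 7 and 9, or from between 0.0469 and 0.195 CPM to between 0.211 and 0.356 CPM. The ranges overlapped in counts and not in CPM, and the pooled ratio was 2.63, with an interval from 1.32 to 5.54. The plot of raw counts shows that the reads of SLFN11, SLFN12 and SLFN12L gather in BAZ1B WT at D0.

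**Figure D3:**
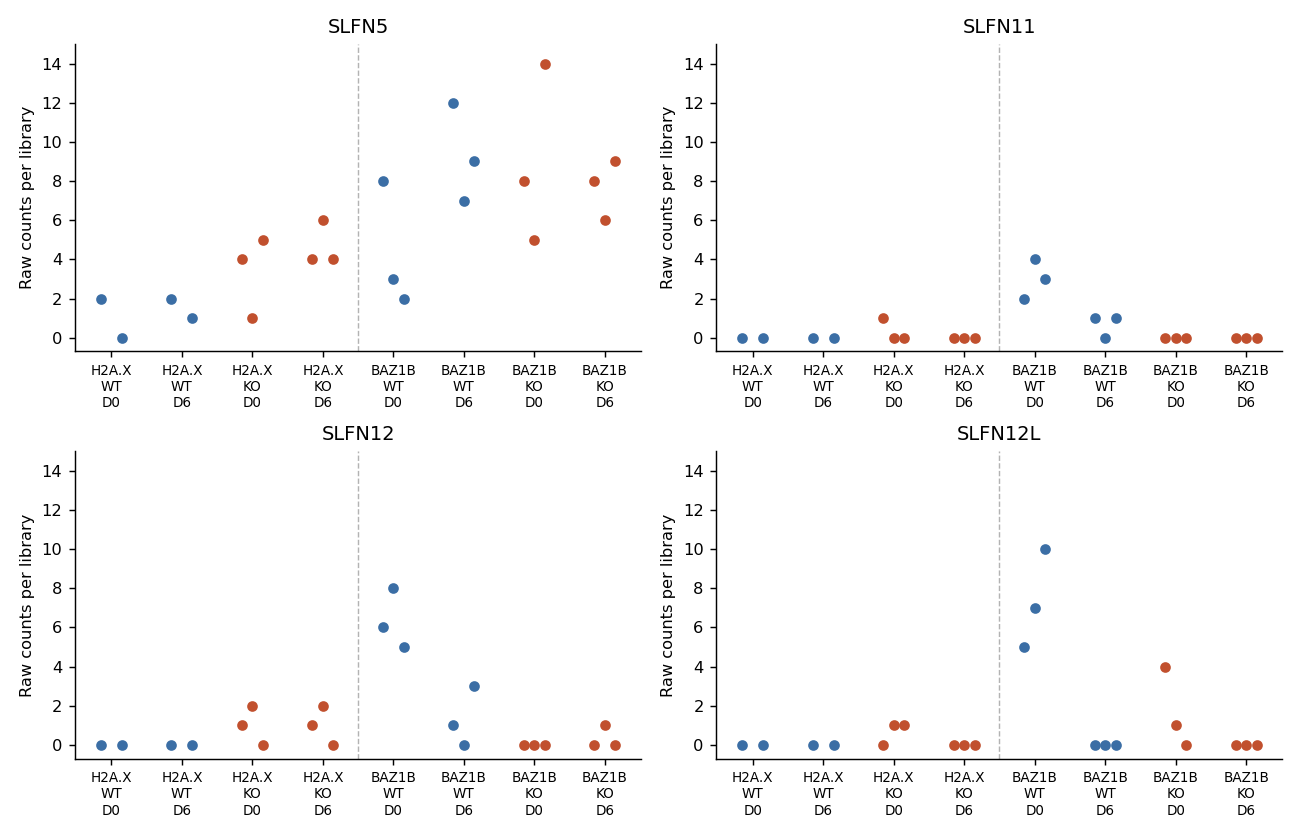
Raw counts per library of the 4 members that did not pass the filter, in the 8 groups, with WT in blue and KO in orange. Each point is 1 library and the dashed line parts the experiments. SLFN11, SLFN12 and SLFN12L have their highest counts in BAZ1B WT at D0, and SLFN5 has reads in all 8 groups.

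The genes beyond the cluster did not share the size of the SLFN13 difference. Of 18 neighbours to either side, 11 were tested in each experiment. In the H2A.X experiment 3 were higher and 0 lower in KO at D0 and 1 higher and 3 lower at D6, with log2 fold changes between -1.29 and 1.87, where 35.1% and 43.1% of all genes were called. The median log2 fold change of the 11 was 0.20 at D0 and -0.06 at D6, beside 0.01 and -0.01 over all tested genes. In the BAZ1B experiment 0 were higher and 1 lower at D0 and 1 higher and 0 lower at D6, with medians of -0.05 and 0.06 beside 0.0026 and -0.0037 over all genes and shares of 3.88% and 12.8% called.

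Among these neighbours AP2B1, a subunit of the clathrin adaptor AP2, was higher in BAZ1B KO at D6 with a log2 fold change of 0.32 (adjusted p = 0.000469, edgeR). In H2A.X KO it was higher at D0 (0.61, adjusted p = 0.0476) and D6 (0.97, adjusted p = 0.00712), but with the offsets for length and GC content neither passed (adjusted p = 0.749 and 0.138, edgeR). RASL10B, a small GTPase of the RAS family, was lower in BAZ1B KO at D0 (log2 fold change -1.06, adjusted p = 0.0346, edgeR). In the H2A.X experiment it read 1.31 to 1.64 CPM in KO and 0.341 to 0.460 CPM in WT at D0 (log2 fold change 1.87). At D6 it averaged 0.433 CPM in KO and 0.246 CPM in WT. It passed the filter of that experiment through the high KO group at D0. That fold is therefore a description, although RASL10B is among the neighbours counted as higher there.

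**Figure D4:**
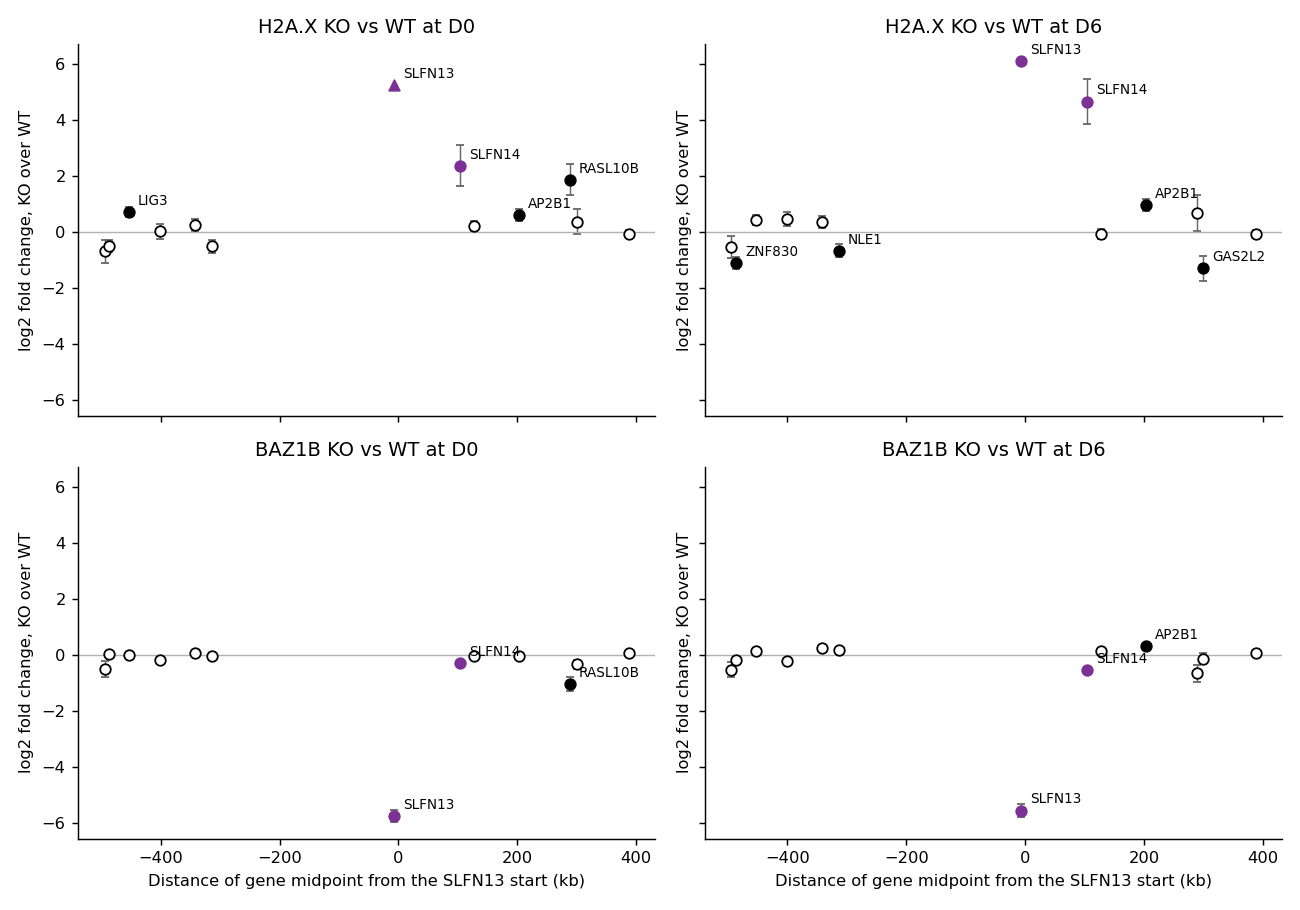
Log2 fold change of KO over WT for the tested genes around SLFN13, against the distance of each gene's midpoint from the SLFN13 start in kb, in the 4 KO comparisons. Purple marks SLFN13 and SLFN14, black other genes with an adjusted p below 0.05 and white the rest, and bars are ± 1 SE. The triangle is the lower bound for SLFN13 at D0 of the H2A.X experiment and its point at D6 is the pooled count ratio, both drawn without a bar. The other genes lie between -1.29 and 1.87.

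Since several Schlafen genes are interferon-induced, a list of interferon response genes was read beside them. Of 26 tested in the H2A.X experiment, 7 were higher and 2 lower in KO at D0, and 8 higher and 5 lower at D6. The list's median log2 fold change was 0.44 and 0.46, against 0.01 and -0.01 over all genes, in comparisons that called 35.1% and 43.1% of all genes. Of 27 tested in the BAZ1B experiment, 0 were higher and 2 lower at D0 and 3 higher and 3 lower at D6, with a median of -0.12 at both days, where 3.88% and 12.8% of all genes were called. Between D0 and D6, 8 rose and 12 fell in BAZ1B WT (68.9% of all genes called), 8 rose and 11 fell in BAZ1B KO (67.7%), and 8 rose and 6 fell in H2A.X KO (30.9%). In H2A.X WT, with 2.0% of all genes called, 0 passed by edgeR and 1 by DESeq2, with 8 at an unadjusted p below 0.05 (edgeR).

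The 2 genes lower in BAZ1B KO at D0 were IFIT2 and IFIT3, which encode interferon-induced RNA-binding proteins. Their log2 fold changes were -1.75 (adjusted p = 0.0107, edgeR) and -1.80 (adjusted p = 0.0214, edgeR). In H2A.X KO at D0 both were higher, by 2.08 (adjusted p = 0.0116, edgeR) and 2.0 (adjusted p = 0.0101, edgeR), and both passed with the offsets for length and GC content as well. Levels were low, at most 8.33 CPM for IFIT3 and 7.09 CPM for IFIT2. RSAD2, the antiviral enzyme viperin, was lower in BAZ1B KO at D6 (-1.41, adjusted p = 1.48e-05, edgeR). IFNAR2 was higher there (0.90, adjusted p = 0.000706, edgeR), in a list with 3 genes higher and 3 lower at that day.

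Genes of tRNA and ribosome surveillance were counted too, because SLFN13 and SLFN14 cut transfer and ribosomal RNA. Of 22 tested, 6 were higher and 5 lower in H2A.X KO at D0 and 9 higher and 8 lower at D6, with medians of -0.13 and -0.19, beside 35.1% and 43.1% of all genes called and medians of 0.01 and -0.01 over all genes. In BAZ1B KO 0 were called at D0 by edgeR and 0 by DESeq2, with 3 at an unadjusted p below 0.05 (edgeR), and at D6 2 were higher, RNH1, the RNase inhibitor (0.25, adjusted p = 0.00122, edgeR), and HBS1L, which rescues stalled ribosomes (0.15, adjusted p = 0.0229, edgeR). Of all genes, 3.88% and 12.8% were called there. RNH1 was lower in H2A.X KO at D6 (-0.97, adjusted p = 0.00418, edgeR), and that call was lost with the offsets (adjusted p = 0.149, edgeR).

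Of 12 partner genes of SLFN11 and SLFN12, 3 were higher and 3 lower in H2A.X KO at D0 and 7 higher and 3 lower at D6, with medians of 0.06 and 0.48, beside the same 35.1% and 43.1% of all genes. PDE3A, the SLFN12 partner, was higher at D0 (2.87, adjusted p = 0.00375, edgeR) and D6 (1.38, adjusted p = 0.0186, edgeR). CDT1, a replication licensing factor that SLFN11 targets, was lower at D0 (-1.11, adjusted p = 0.0176, edgeR). With the offsets for length and GC content PDE3A passed at D0 only (adjusted p = 0.00698, and 0.481 at D6, edgeR), and CDT1 read -0.81 at D0, just short of passing (adjusted p = 0.0519, edgeR). In BAZ1B KO 0 were higher and 2 lower at D0 and 2 higher and 0 lower at D6, all by 0.27 or less on the log2 scale, beside 3.88% and 12.8% of all genes.

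By likeness of pattern, the tested genes whose log2 CPM followed SLFN13 most closely over the 10 H2A.X libraries were SMAD1, a transducer of BMP signals (Pearson's r = 0.993), SHROOM2P1 (0.993) and RAB4A, an endosomal GTPase (0.990). SMAD1 stood at 0 CPM in WT and 27.0 in KO at D0. Lowest was CYP4F32P, at -0.976. For SLFN14 they were CLTC, the clathrin heavy chain (0.997), QKI (0.995) and HLTF (0.994), and lowest S100A4 (-0.989). Over the 12 BAZ1B libraries, AC005064.1 (0.993), ZNF215 (0.992) and DMD, the dystrophin gene (0.992), came nearest to SLFN13. DMD and ZNF215 had 0 CPM in KO at both days and 12.9 and 10.5 CPM in WT at D0. EIF3J, a subunit of a translation initiation factor (0.997), CHMP5 (0.996) and SEC62 (0.995) came nearest to SLFN14. These values rest on libraries that share genotype, day and run, and so are a description.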

How the data were processed

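The deposited tables hold unnormalized counts of reads per gene, with a column for each library, which the authors made from single-end reads mapped by STAR to hg38. The submitters' processing notes also list Subread 1.6.4 with featureCounts and DESeq2 1.22.1. The paper's methods name a stranded and the labels an unstranded kit, which was not tested, so reads on overlapping genes of opposite strand may be mixed. The read length differs between them too, at 75 bases in the paper and 100 in the labels. Genes that passed filterByExpr of edgeR 4.0.16 (R 4.3.3; minimum count 10, minimum total 15) were scaled by TMM and fitted per experiment with a quasi-likelihood model, 1 coefficient per genotype and day. Tests were two-sided, Benjamini-Hochberg adjusted over all tested genes and called at 0.05. The SE was taken from the F statistic. Labels do not state separate cultures, so p-values measure the spread between these samples. Levels are TMM-scaled CPM, the count relative to library size, divided by the length of the canonical GENCODE transcript where genes are compared. A count of 0 was bounded by 3 counts per library, and intervals cover counting error only.

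Members and gene lists were chosen with earlier results of these data known. Named list genes were drawn from the 4 largest called changes, or fewer, of a list in a KO comparison, and not all of those are named. Likeness names the 3 highest correlations and the lowest. The procedure was tested on simulated data. Alternatives were DESeq2 1.42.0, RLE scaling, no filter, stricter cutoffs on adjusted p and, added after seeing the data, on unadjusted p, a replicate block, offsets for length and GC content, the compared day alone and leaving out each library. Same-numbered KO and WT libraries share only a number. D0 and D6 deviations of same-numbered KO libraries correlated by 0.272 to 0.549 (H2A.X) and 0.109 to 0.550 (BAZ1B).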

Additional observations from a re-analysis of the deposited data

Results flagged for a closer look

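SLFN13, which selected the family, had every KO library above every WT library in the H2A.X experiment (fitted log2 fold change 9.97 at D0 and 5.98 at D6, the first against WT libraries at 0) and below every WT library in the BAZ1B experiment (-5.76 and -5.57). SLFN14 took the same directions, at 2.36 and 4.66 in the H2A.X and -0.30 and -0.56 in the BAZ1B experiment. The difference between the experiments was not tested, since the tables were made separately.

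Other list genes were examined for a day only where they were among the largest called KO changes at that day. They were thus preselected, and the share of all genes separated in the same way was not counted. For KO against WT, 35.1% and 43.1% of all genes were called at D0 and D6 (H2A.X), and 3.88% and 12.8% (BAZ1B). Their differences between experiments were not tested either. In some list genes, every KO library lay on one side of every WT library in the H2A.X experiment and on the opposite side in the BAZ1B experiment. At D0 these were IFIT2 (2.08 in H2A.X KO and -1.75 in BAZ1B KO), IFIT3 (2.0 and -1.80), RASL10B (1.87 and -1.06) and PDE3B (0.83 and -0.27). At D6 these were IFIT2 (2.05 and -1.07), IFIT3 (3.35 and -1.06), SAMD9L (2.92 and -0.27), NLE1 (-0.67 and 0.15), CDT1 (-1.09 and 0.27) and RNH1 (-0.97 and 0.25). In BAZ1B KO at D6, IFIT3, SAMD9L and NLE1 did not pass the test (adjusted p = 0.0666, 0.0765 and 0.168, edgeR). With offsets for length and GC content, PDE3B in H2A.X KO at D0 read 0.24 (adjusted p = 0.238, edgeR) and in BAZ1B KO -0.24 (adjusted p = 0.0736, edgeR), and at D6 in H2A.X KO CDT1 read -0.58 and RNH1 -0.27 (adjusted p = 0.132 and 0.149, edgeR).

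In the BAZ1B experiment the KO effect differed between D6 and D0 by the interaction term of edgeR for RSAD2 (-1.5 on the log2 scale, adjusted p = 0.000734) and AP2B1 (0.35, adjusted p = 0.0115). Nearer the threshold were RNH1 (0.26, adjusted p = 0.0310), PDE3B (0.39, adjusted p = 0.0333) and RPA3 (0.22, adjusted p = 0.0368), all by edgeR. This test called 2.47% of all genes. Only members and named list genes were examined, most of the latter preselected on a called KO change.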

How the results depend on the processing

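Counts here are of members called, over the members other than SLFN13 for KO against WT and over all members for day. At stricter cutoffs (adjusted p below 0.001 and log2 fold change above 1.5) the count went from 1 to 0 for H2A.X KO against WT at D0 and D6, for H2A.X KO between days and for BAZ1B KO against WT at D6, and from 2 to 1 for day in BAZ1B WT. With unadjusted p below 0.001 in its place, a choice made after seeing the data, these counts were the same but for H2A.X KO against WT at D6, which stayed at 1. Offsets for length and GC content took H2A.X KO against WT at D0 from 1 to 0, alone and with the replicate block (adjusted p = 0.0549, edgeR). Without the filter on low counts, 1 member was called in place of 0 for the difference of the H2A.X KO effects (SLFN14, 2.34, adjusted p = 2.04e-05, edgeR) and for BAZ1B KO against WT at D0 (SLFN12, whose KO libraries held 0 reads, so that its fitted fold is no bound). For day in BAZ1B WT 3 were called, SLFN12L besides SLFN13 and SLFN14. SLFN14 between days in H2A.X WT then read -0.0121. The replicate block alone changed no call (SLFN14 in H2A.X KO, 2.78 at D0 and 4.77 at D6, adjusted p = 0.0160 and 0.00158, edgeR). Offsets with the block called CDT1 at D0 in H2A.X KO (-0.92, adjusted p = 0.00443, edgeR).

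Leaving out single libraries gave 0 members called in every case for H2A.X KO against WT at D0, 0 to 1 at D6 and 0 to 1 for the difference of the KO effects. For day in BAZ1B WT it gave 2 to 3, with SLFN5 called as well without WT replicate 1 at D0 (2.15, adjusted p = 0.00989, edgeR) or WT replicate 2 at D6 (1.52, adjusted p = 0.0493, edgeR). The SLFN14 difference between days in H2A.X WT ranged from -0.50 to 0.91, and the SLFN13 difference in BAZ1B KO from -0.62 to 0.0161, so neither has a settled sign. The low counts in H2A.X WT, at most 41 reads of SLFN14, limit that experiment.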
